A study of Mus musculus with 12 samples.

Results

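The genes of the proteasome were followed in the livers of septic mice, among them the interferon-inducible subunits of the immunoproteasome. Members were all rows of the deposited count table whose symbol is Psma, Psmb, Psmc, Psmd, Psme or Psmf followed by a number. These are 46 of the 25611 genes in the table. Whole livers of male C57BL6J mice, 8 to 10 weeks old, were sequenced 30 hr after surgery, with 4 mice in each of 3 groups. Sham mice had the sham operation. CLP mice had cecal ligation and puncture, a surgical model of polymicrobial sepsis. CLP+DCA mice had the same surgery and received dichloroacetate, a pyruvate analog that inhibits pyruvate dehydrogenase kinases, at 25 mg/kg by intraperitoneal injection 24 hr after surgery, 6 hr before the liver was taken. What was injected into sham and CLP mice at 24 hr is not given in the sources used here. The labels name no genetic change, each library was taken as 1 mouse, and the liver was not separated into cell types.

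The proteasome degrades proteins that carry ubiquitin chains. Its barrel-shaped core has outer rings of alpha subunits and inner rings of beta subunits, and the beta subunits Psmb5, Psmb6 and Psmb7 carry the proteolytic sites. A regulatory particle made of ATPases, base and lid subunits caps the core, recognises the ubiquitin and unfolds the substrate. Interferon-gamma induces Psmb8, Psmb9 and Psmb10, which replace Psmb5, Psmb6 and Psmb7 in newly built cores and shift cleavage towards peptides that MHC class I molecules can present. It also induces Psme1 and Psme2, the alpha and beta chains of the PA28 cap. In liver, hepatocytes hold mostly the constitutive form, whereas lymphocytes and other leukocytes hold much of the inducible form.

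Of the 46 members, 31 are constitutive subunits of the core and the regulatory particle (Psma1 to Psma7, Psmb1 to Psmb7, Psmc1 to Psmc6, and 11 Psmd genes) and 5 are the immunoproteasome genes Psmb8, Psmb9, Psmb10, Psme1 and Psme2. The other 10 are the assembly chaperones Psmd5, Psmd9 and Psmd10, the alternative caps Psme3 and Psme4, the inhibitor Psmf1, the testis subunit Psma8, the thymus subunit Psmb11, Psme2b, a near copy of Psme2, and Psmc3ip. Psmc3ip matches the symbol pattern by name only, since it encodes a partner of meiotic recombination proteins. A filter on low counts left 45 members, and Psmb11 alone did not pass it, with 0 reads in each of the 12 mice. Because Psme2b and Psme2 are near identical, reads could have been split between them, and the values of Psme2b (1.21 to 2.94 CPM over all mice, where CPM is reads of a gene per 1000000 reads of the scaled library) are uncertain. Psma8 lay at 0.356 to 1.12 CPM and Psmc3ip at 0.191 to 0.672 CPM.

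Between 24436513 and 44266819 reads were counted per mouse, and the members took 0.229 to 0.378% of them. Copies of 1 molecule made by PCR may have been counted as separate reads, so read numbers alone may understate the error. The share of reads from acute phase genes was 10.5 to 11.9% in sham livers and 19.9 to 34.5% in CLP livers, and values are therefore given in CPM on library sizes scaled by the trimmed mean of M-values (TMM). On this scale the median log2 fold change of all 13190 genes tested was 0.018 in CLP versus sham. Hepatocyte markers, 7 of 8 listed genes being in the table, were high in every library, as labelled, but lower in CLP, with sums of 66864 to 85778 CPM in sham and 32993 to 50843 CPM in CLP. CLP+DCA replicate 3 stood apart from the other 3 mice of its group. Its neutrophil markers summed to 61.1 CPM against 5.84 to 13.4, its lymphocyte markers to 0.921 against 2.39 to 3.16, its hepatocyte markers to 29008 CPM, the lowest of the 12 mice, against 52409 to 61325, and its acute phase genes took 34.0% of the reads against 14.2 to 19.1%. The main results of the CLP+DCA group are therefore given with and without this mouse.

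Sequence upstream of the members was read from RefSeq promoters (build GRCm38.p6, the mm10 assembly), where 39 of the 46 members matched by NCBI Gene identifier, with 42 start sites. Since most members lay lower together in CLP, the 250 bases before each start site were searched on both strands for 4 motifs. The core of the antioxidant response element, TGACNNNGC, is bound by NRF1 and NRF2, and NRF1 is known to drive proteasome genes. It was found at 4 of 25 constitutive subunits with a sequence (16.0%), at 0 of the 5 immunoproteasome genes and at 11.5% of all 27025 genes. The chaperone Psmd9 also had a match. The STAT motif TTCNNNGAA was found at 1 of 39 members, Psmb8, and at 8.13% of all genes. The NF-Y box CCAAT was found at 15 members, 10 of them constitutive (40.0%) and 1 of the immunoproteasome genes, Psmb9, against 37.5% of all genes. The interferon response type motif, a pair of GAAA runs parted by any 2 bases, was found at 3 of 39 members. Of these, 2 were among the 25 constitutive subunits (8.0%) and none was an immunoproteasome gene, against 3.46% of all genes. These shares are descriptions, and a match is not a bound site. No 2 of the motifs overlapped at the sites printed. The matches at catalytic subunits, other than the CCAAT match at Psmb9, are printed because these subunits form the pairs compared here. Capitals mark the motif, and each run of 30 bases is on the strand of its gene, 5′ to 3′.

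Psmb5 (ARE core, 39 to 47 bases before the start, minus strand, chr14:54618023-54618052): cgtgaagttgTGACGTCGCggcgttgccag
Psmb6 (ARE core, 1 to 9 bases before the start, plus strand, chr11:70525327-70525356): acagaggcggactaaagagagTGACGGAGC
Psmb8 (STAT motif, 89 to 97 bases before the start, plus strand, chr17:34198088-34198117): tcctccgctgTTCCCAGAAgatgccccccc

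In sham liver, the constitutive catalytic subunits were the more abundant of each pair. Levels of different genes were compared per kilobase of exon (GENCODE M21). Psmb6 was the most abundant of the 31 constitutive subunits at 130 ± 9.94 CPM per kb (SD, n = 4), Psma2 the least at 21.9 ± 1.38, and the median was 50.5. Psmb9 lay at 8.71 ± 1.83, Psmb8 at 14.6 ± 0.831 and Psmb10 at 29.5 ± 0.704 CPM per kb. The PA28 genes were of the order of the abundant core subunits, Psme1 at 81.6 ± 6.86 and Psme2 at 76.2 ± 4.04, and both lay above the nuclear cap Psme3 at 20.1 ± 0.459 CPM per kb. Per length, the inducible gene thus made up 6.27 ± 1.04% of the Psmb9 and Psmb6 pair, 16.2 ± 1.06% of the Psmb8 and Psmb5 pair and 22.4 ± 0.579% of the Psmb10 and Psmb7 pair (SD, n = 4). In CLP the shares were 5.18 ± 0.877, 13.6 ± 1.88 and 18.3 ± 1.24%.

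The comparison of CLP with sham asks how the transcripts of the proteasome differed in septic liver at 30 hr. They were lower, mildly and together. Of the 45 members tested, 41 had a lower mean in CLP, against 48.1% of all genes, and the median log2 fold change was −0.21 in the 31 constitutive subunits (30 lower) and −0.39 in the 5 immunoproteasome genes (5 lower). In 17 of 45 members every CLP mouse lay below every sham mouse, against 14.2% of all genes. In no member did every CLP mouse lie above every sham mouse, whereas 12.2% of all genes were apart in this direction. By edgeR's quasi-likelihood test over all genes with a Benjamini-Hochberg FDR of 0.05, 0 of 45 members passed, as against 2.78% of all genes. The smallest adjusted p of a member was 0.0695, at Psmb10. At an unadjusted p under 0.05 there were 17 members, all lower (edgeR), against 13.1% of all genes that were lower at this level.

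Other tests called some members, and they also called more of all genes. At an FDR of 0.1, 11 members passed by edgeR (15.3% of all genes). At 0.05, DESeq2 on all 12 mice called 10 members (of all genes, 13%), DESeq2 on the 8 mice compared 13 (23.3%), edgeR on these 8 mice 8 (18.3%) and limma voom with sample quality weights 19 (26.2%), all of them lower in CLP. Psma3, Psmb7, Psmb10, Psmc1, Psmc6, Psmd5 and Psme1 were among the members called by each of these 4 tests. They are named after their values were seen. The fit of edgeR without CLP+DCA replicate 3 called 13 members (23.8% of all genes), including the 5 immunoproteasome genes, and that without CLP replicate 3 called 5 (7.46%).

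Psmb10, the inducible subunit with trypsin-like activity (NCBI Gene 19171, mm10 chr8:105935728-105938392, minus strand), had the largest log2 difference among the immunoproteasome genes. Its level was 38.3, 40.1, 38.1 and 38.4 CPM in the 4 sham mice and 24.9, 23.1, 29.5 and 18.6 CPM in the 4 CLP mice. All CLP mice lay below all sham mice, and the sham mice were within 2 CPM of each other. The log2 fold change was −0.69 ± 0.20 (SE, adjusted p = 0.0695 by edgeR), a level lower by 37.8% that did not pass the FDR. In the fit without CLP+DCA replicate 3, a mouse of neither group, it was −0.68 ± 0.13 with an adjusted p of 0.00724 by edgeR. That mouse enters the main fit because the estimate of spread is shared among the groups.

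Psmb8 and Psmb9 lie on both sides of the transporter gene Tap1 in the class II region of the MHC on chromosome 17. Psmb9 (NCBI Gene 16912, chr17:34182099-34187330, minus strand) and Tap1 start back to back with 225 bases between them. Psmb8 (NCBI Gene 16913, chr17:34198195-34201454, plus strand), the inducible subunit with chymotrypsin-like activity, was at 23.5, 25.3, 24.3 and 22.1 CPM in sham and at 18.8, 21.5, 18.9 and 13.6 CPM in CLP. Its groups did not overlap, and its log2 fold change of −0.38 ± 0.19 (SE) had an adjusted p of 0.207 by edgeR. Psmb9 was at 10.9, 14.4, 13.1 and 8.75 CPM in sham and at 8.53, 7.95, 10.5 and 6.69 CPM in CLP. Here the groups overlapped through sham replicate 4, and the log2 fold change of −0.48 ± 0.32 had an adjusted p of 0.319 by edgeR. It rested on 149 to 580 reads per mouse in these groups, the fewest of the 5 immunoproteasome genes. Tap1, which moves peptides into the endoplasmic reticulum and is no member, was at 21.6 to 24.0 CPM in sham and 16.9 to 19.6 CPM in CLP, with a log2 fold change of −0.33 ± 0.09 (adjusted p = 0.0650 by edgeR).

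Psme1 and Psme2 lie near each other on chromosome 14 and code for the chains of PA28, a cap that opens the core without ATP. Psme1 (NCBI Gene 19186, chr14:55578494-55581527, plus strand) was at 94.5, 94.3, 94.9 and 79.3 CPM in sham and at 69.5, 63.4, 77.5 and 67.0 CPM in CLP. Psme2 (NCBI Gene 19188, chr14:55587440-55591101, minus strand) was at 75.6, 76.6, 76.9 and 68.6 CPM in sham and at 57.5, 58.1, 64.0 and 53.3 CPM in CLP. Both pairs of groups were apart, and in both genes sham replicate 4 was the lowest sham mouse. The log2 fold change was −0.39 ± 0.12 (SE) for Psme1 with an adjusted p of 0.0799 by edgeR. It was −0.35 ± 0.12 for Psme2 with an adjusted p of 0.0947 by edgeR. The gene Emc9 overlaps Psme1 by 4 bases on the opposite strand. The other caps were close to their sham levels, Psme3 at −0.04 ± 0.07 and Psme4 at 0.03 ± 0.11 on the log2 scale.

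**Figure D1:**
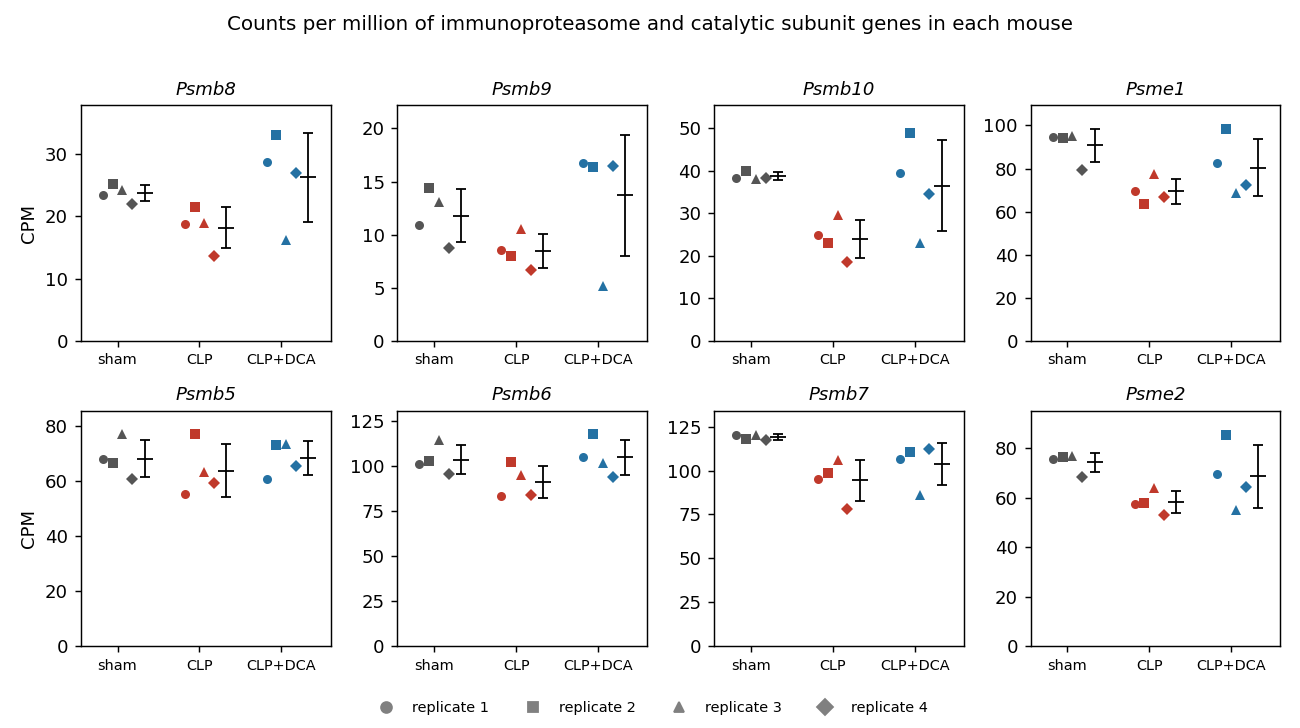
Levels in CPM (TMM-scaled, linear axes from 0) of the 5 immunoproteasome genes and the 3 constitutive catalytic subunits in each of 12 mice. Marker shape gives the replicate number, and the bar to the right of each group is the mean ± SD of 4 mice. In Psmb10 the sham mice sit between 38.1 and 40.1 CPM and the CLP mice between 18.6 and 29.5, and CLP+DCA replicate 3 (triangle) is the lowest of its group in all 5 immunoproteasome genes.

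Among the constitutive catalytic subunits, Psmb7, the partner of Psmb10, differed most. It was at 120, 118, 120 and 117 CPM in sham and at 95.1, 98.7, 106 and 78.4 CPM in CLP. The groups were apart, and the log2 fold change was −0.33 ± 0.11 (SE, adjusted p = 0.0929 by edgeR). Psmb6 was at 101, 103, 115 and 95.7 CPM in sham and at 83.2, 102, 94.8 and 84.0 CPM in CLP, and these groups overlapped (log2 fold change −0.18 ± 0.10). Psmb5 was at 68.0, 66.8, 77.1 and 60.8 CPM in sham and at 55.3, 77.4, 63.5 and 59.4 CPM in CLP, with CLP replicate 2 the highest of these 8 mice (−0.09 ± 0.12). Psmb5 and Psmb6 are also the catalytic subunits with an ARE core match before the start. The other 2 constitutive subunits with such a match were at −0.32 ± 0.10 (Psmc6) and −0.20 ± 0.10 (Psmd12), near the lowest and the median of the class.

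In the other structural groups the differences were of similar size. All 7 alpha subunits, which form the gated outer rings, were lower, from −0.15 ± 0.08 in Psma6 to −0.33 ± 0.11 in Psma5 (log2 fold change ± SE), and in 4 of them the groups were apart. The 4 non-catalytic beta subunits ranged from −0.11 ± 0.11 in Psmb4 to −0.23 ± 0.10 in Psmb2. All 6 ATPases, which unfold the substrate, were lower, from −0.17 ± 0.09 in Psmc2 to −0.35 ± 0.10 in Psmc1. Psmc1 was at 108, 105, 113 and 111 CPM in sham and at 91.5, 78.8, 98.9 and 75.0 CPM in CLP, and these groups were apart (adjusted p = 0.0702 by edgeR). The non-ATPase subunits of the base lay between −0.09 ± 0.09 in Psmd2 and −0.21 ± 0.12 in the ubiquitin receptor Psmd4.

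The lid was the least uniform structural group of the regulatory particle. Psmd14, the deubiquitinase of the lid, was at 54.8, 45.2, 51.2 and 46.2 CPM in sham and at 41.5, 37.1, 43.9 and 32.6 CPM in CLP, with groups apart and a log2 fold change of −0.35 ± 0.11 (SE, adjusted p = 0.0836 by edgeR). Psmd8 was the only one of the 31 constitutive subunits with a higher mean in CLP. It was at 94.5, 101, 104 and 94.7 CPM in sham and at 92.9, 133, 110 and 103 CPM in CLP, and these groups overlapped (0.15 ± 0.15). Outside the particle itself, the chaperone Psmd5 was lower (−0.29 ± 0.09, groups apart), Psmd10 was higher with a wide error (0.37 ± 0.23), and the inhibitor Psmf1 was at −0.17 ± 0.09, with adjusted p-values of 0.0763, 0.295 and 0.237 by edgeR. Psma8 was at 0.59 ± 0.35, Psme2b at −0.36 ± 0.23 and Psmc3ip at −0.54 ± 0.36, all at low counts.

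**Figure D2:**
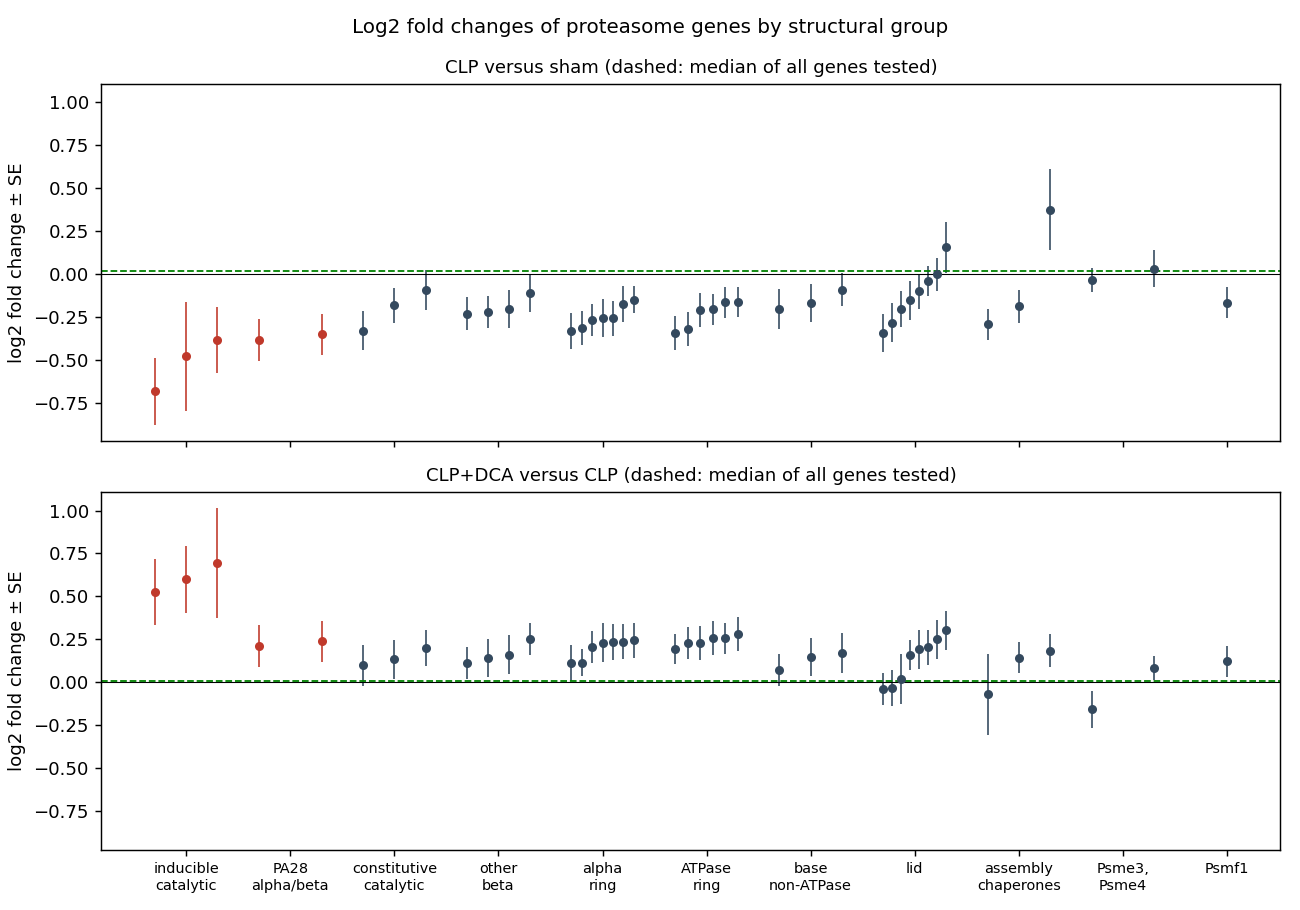
Log2 fold changes ± SE (edgeR, 12 mice) of proteasome genes by structural group in CLP versus sham (top) and CLP+DCA versus CLP (bottom), with immunoproteasome genes in red and other members in blue, and Psma8, Psme2b and Psmc3ip not drawn. The dashed line is the median of all 13190 genes. In the top panel 30 of 31 constitutive subunits and the 5 immunoproteasome genes lie below 0, and in the bottom panel 29 and 5 of them lie above 0. The same CLP mice enter both panels.

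The mice of the CLP group differed in how far the whole class was shifted. As a mean over the 31 constitutive subunits (log2 CPM less the sham mean), the CLP mice were at −0.18, −0.18, −0.05 and −0.39, and the sham mice at 0.03, −0.06, 0.08 and −0.05. CLP replicate 4 was the lowest of the 12 mice for 26 of the 31 subunits. CLP replicate 3 lay within the sham range, and without it 29 members instead of 17 had groups that did not overlap, against 19.8% of all genes with 3 CLP mice. For the 5 immunoproteasome genes the CLP mice were at −0.43, −0.46, −0.26 and −0.71, all below the sham mice at −0.01, 0.11, 0.06 and −0.17. Acute phase genes took 23.3, 34.5, 19.9 and 31.8% of the reads in CLP replicates 1 to 4. Their share was highest in replicate 2, whereas the constitutive mean was lowest in replicate 4. Lymphocyte markers moved with the same contrast: the 10 listed genes, 4 of which passed the filter and none of which was at 0 in all mice of a group, summed to 2.65 to 5.41 CPM in sham and 0.670 to 2.15 CPM in CLP. The markers of all leukocytes went the other way, at 23.1 to 35.5 CPM in sham and 31.8 to 40.9 CPM in CLP, and the 9 neutrophil markers summed to 5.48 to 7.92 CPM in sham, where Camp was at 0 in every mouse, and to 31.2 to 45.6 CPM in CLP. Cholangiocyte markers were at 34.4 to 43.7 CPM in sham and 61.9 to 96.1 CPM in CLP, and the hepatocyte sums given above did not overlap either. The part of these cells in the differences was not tested, and in whole liver fewer cells of a type and less RNA per cell cannot be told apart.

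Ratios of an inducible gene to another gene in the same mouse do not depend on library scaling. For Psmb8, Psmb9 and Psmb10 the other gene was the constitutive catalytic subunit that each replaces. For Psme1 and Psme2 it was Psme3, an alternative cap that is not counted among the constitutive subunits. Of 15 exact two-sided permutation tests (5 ratios in 3 contrasts), none passed 0.05 after Benjamini-Hochberg adjustment, and the smallest p that 4 against 4 mice allow is 0.0286. Adjusted over 15 tests, a p at this limit passes only where most of the tests reach it, so that not passing says little. Per 100 reads of Psmb7 there were 31.9, 34.1, 31.7 and 32.7 reads of Psmb10 in sham and 26.2, 23.5, 27.9 and 23.7 in CLP. These groups were apart, and the difference of the mean log2 ratio was −0.37 (exact permutation p = 0.0286, adjusted p = 0.171). Per 100 reads of Psme3 there were 138, 146, 142 and 131 reads of Psme2 in sham and 115, 104, 127 and 103 in CLP, also apart, with a difference of −0.32 (exact permutation p = 0.0286, adjusted p = 0.171). In Psmb8 to Psmb5 and Psme1 to Psme3, 1 CLP mouse each overlapped with sham (differences −0.30 and −0.35, exact permutation p = 0.0571, adjusted p = 0.171). Psmb9 to Psmb6 differed by −0.29 with wide overlap (exact permutation p = 0.171, adjusted p = 0.429).

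**Figure D3:**
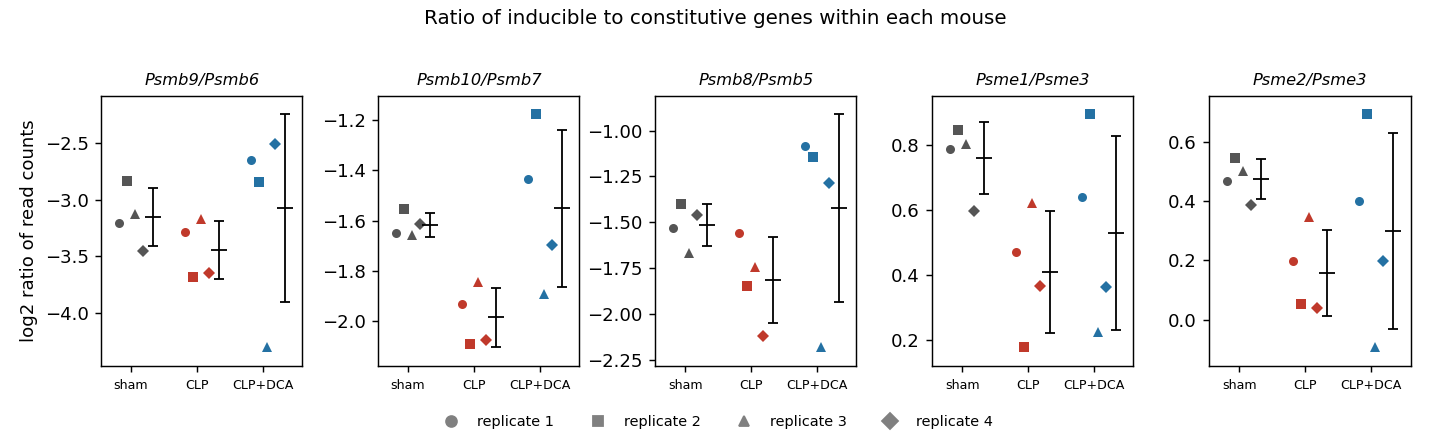
Log2 ratio of read counts of an inducible gene to its constitutive catalytic counterpart, or of Psme1 and Psme2 to the alternative cap Psme3, within each of 12 mice (linear axis of log2 values, own range per panel). Bars to the right are the mean ± SD of 4 mice. The ratio Psmb10/Psmb7 lies between −1.66 and −1.55 in sham and between −2.09 and −1.84 in CLP, and CLP+DCA replicate 3 (triangle) is the lowest CLP+DCA mouse in all 5 panels.

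The comparison of CLP+DCA with CLP asks what differed 6 hr after dichloroacetate. Proteasome transcripts were mostly higher in CLP+DCA, though none passed the test. Of 45 members, 40 had a higher mean, against 51.6% of all genes, with a median log2 fold change of 0.19 in the constitutive subunits (29 of 31 higher) and 0.53 in the immunoproteasome genes (5 of 5 higher). Without CLP+DCA replicate 3, 39 members were higher and these medians were 0.21 and 0.70. By edgeR 0 of 45 members passed the FDR (0.00758% of all genes), and the smallest adjusted p was 0.382, at Psmb10. At an unadjusted p under 0.05 there were 13 members, all higher (edgeR), against 5.06% of all genes. Voom with quality weights called 12 members (10.2% of all genes), and DESeq2 called 0, both on 12 mice (0.815%) and on the 8 mice compared (0.604%). On these 8 mice edgeR also called 0 members (0% of all genes).

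The inducible catalytic subunits split the CLP+DCA group. Psmb9 was at 16.8, 16.3, 5.15 and 16.5 CPM in CLP+DCA, so that 3 mice lay above every CLP and every sham mouse and replicate 3 below all of them. Psmb8 was at 28.7, 33.2, 16.2 and 26.9 CPM, again with 3 mice above every CLP and every sham mouse, and replicate 3 within the CLP range. Psmb10 was at 39.4, 48.9, 23.1 and 34.5 CPM, with 3 mice above all CLP mice. The log2 fold changes against CLP were 0.69 ± 0.32 for Psmb9, 0.53 ± 0.19 for Psmb8 and 0.60 ± 0.20 for Psmb10 (SE), with adjusted p-values of 0.497, 0.414 and 0.382 by edgeR. Without replicate 3 they were 0.97, 0.70 and 0.76, with adjusted p-values of 0.0199, 0.0215 and 0.0215 by edgeR. In that fit these 3 genes were the only members past the FDR (of all genes, 4.64%). This mouse is the lowest of its group in these genes, so that leaving it out raises the differences, and the values describe the other 3 mice only.

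PA28 differed less. Psme1 was at 82.5, 98.3, 68.7 and 72.2 CPM in CLP+DCA and Psme2 at 69.8, 85.5, 55.2 and 64.4 CPM. In both genes replicate 2 was the highest and replicate 3 the lowest mouse, and both groups overlapped with CLP. The log2 fold changes were 0.21 ± 0.12 and 0.24 ± 0.12 (SE), with adjusted p-values of 0.586 and 0.537 by edgeR. Without replicate 3 they were 0.28 ± 0.12 and 0.33 ± 0.10, with adjusted p-values of 0.144 and 0.0778 by edgeR.

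As a class, the constitutive subunits were closer together in these mice. As a mean over the 31 subunits, the CLP+DCA mice were at −0.05, 0.03, −0.06 and −0.01 (log2 CPM less the sham mean), so that replicate 3 lay beside the other mice, whereas for the 5 immunoproteasome genes they were at 0.12, 0.33, −0.66 and −0.0015. In 3 members every CLP+DCA mouse lay above every CLP mouse, against 2.32% of all genes. Without CLP+DCA replicate 3 there were 16 such members, 10 constitutive and 4 of the immunoproteasome, against 12.4% of all genes, and without CLP replicate 3 there were 16, all constitutive, against 4.38%. The 3 members over all mice were the ATPases Psmc3, Psmc4 and Psmc5, named after their values were seen. Psmc5 was at 72.5, 83.5, 73.1 and 68.4 CPM in CLP+DCA and at 63.1, 58.8, 67.9 and 54.9 CPM in CLP (log2 fold change 0.28 ± 0.10, adjusted p = 0.402 by edgeR). Psmc4 was at 88.4, 95.5, 87.7 and 86.5 CPM in CLP+DCA and at 76.2, 75.4, 80.9 and 67.2 CPM in CLP (0.26 ± 0.09, adjusted p = 0.400 by edgeR). Without CLP+DCA replicate 3 the log2 fold changes were 0.29 ± 0.11 for Psmc5 and 0.27 ± 0.09 for Psmc4, and neither passed (adjusted p = 0.108 and 0.10004 by edgeR). Of the catalytic subunits, Psmb5 was at 61.0, 73.3, 73.6 and 65.7 CPM in CLP+DCA, Psmb6 at 105, 118, 102 and 94.0 CPM and Psmb7 at 107, 110, 85.9 and 112 CPM, and each overlapped with CLP.

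**Figure D4:**
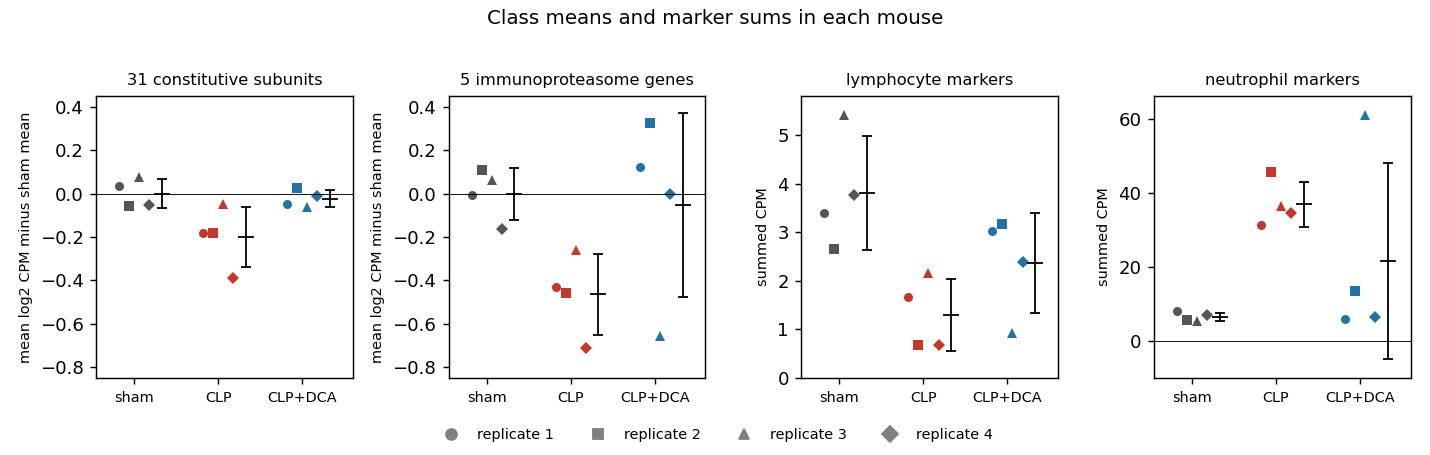
Mean log2 CPM less the sham mean over 31 constitutive subunits and 5 immunoproteasome genes (left pair, common axis), and summed CPM of lymphocyte and neutrophil markers (right pair), in each of 12 mice with mean ± SD of 4 mice. CLP+DCA replicate 3 (triangle) lies at −0.06 for the constitutive subunits and at −0.66 for the immunoproteasome genes, with 0.921 CPM of lymphocyte and 61.1 CPM of neutrophil markers.

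In the ratios, replicate 3 was again apart. Per 100 reads of Psmb6 there were 16.0, 13.9, 5.07 and 17.6 reads of Psmb9 in CLP+DCA, against 10.3, 7.80, 11.1 and 7.99 in CLP. Per 100 reads of Psmb5 there were 47.1, 45.3, 22.1 and 41.1 reads of Psmb8, against 34.0, 27.8, 29.8 and 23.02 in CLP. Per 100 reads of Psmb7 there were 37.0, 44.3, 26.9 and 30.8 reads of Psmb10. Over all 4 mice the differences from CLP in the mean log2 ratio were 0.37, 0.39 and 0.43, with exact permutation p-values of 0.429, 0.229 and 0.0571 (adjusted p = 0.607, 0.482 and 0.171). Without replicate 3 they were 0.78, 0.65 and 0.55, each with an adjusted p of 0.0714 by exact permutation. Too few mice remain for a single ratio to pass by itself after adjustment.

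Against sham, the CLP+DCA group was close to the sham levels at most members. Of 45 members 28 were lower, against 47.8% of all genes, and the medians of the log2 fold change were −0.03 in the constitutive subunits and −0.09 in the immunoproteasome genes. Without replicate 3 these medians were −0.01 and 0.08. The second median covers a split. In that fit Psmb9 was at 0.49 ± 0.17, Psmb8 at 0.32 ± 0.13 and Psmb10 at 0.08 ± 0.14. Psme1 was at −0.11 ± 0.12 and Psme2 at −0.02 ± 0.10 (log2 fold change ± SE). By edgeR 0 of 45 members passed the FDR (0.0379% of all genes). None had an unadjusted p under 0.05 (edgeR), against 640 lower and 1074 higher genes of all 13190. No member was called by DESeq2 on 12 mice (1.83% of all genes) or on 8 mice (1.2%), by voom (3.76%), by edgeR on 8 mice (0%) or by edgeR without replicate 3 (0.0828%). In 2 members, Psmb7 (−0.20 ± 0.11) and Psmd5 (−0.15 ± 0.09), every CLP+DCA mouse lay below every sham mouse, against 4.97% of all genes, and without replicate 3 Psma5 was added to them, giving 3 members, against 6.45%. CLP versus sham and CLP+DCA versus CLP share the CLP mice, so that a low CLP mouse enters both with opposite sign.

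Genes around the proteasome were taken from 4 lists. Of 17 tested genes for assembly, transcription and control of the proteasome, 14 were lower in CLP than in sham, against 48.1% of all genes, and 1 passed the FDR, against 2.78%. This was Uchl5, a deubiquitinase that binds the regulatory particle, which was at 16.1 ± 0.773 CPM in sham and fell to 10.7 ± 1.78 CPM in CLP (SD, n = 4), with a log2 change of −0.58 ± 0.13 (SE, adjusted p = 0.0430 by edgeR). In CLP+DCA it was at 13.3 ± 1.75 CPM, and against CLP neither it (0.31 ± 0.13), Txnl1 (0.20 ± 0.09) nor another gene of the list passed. The next genes by p are named after their values were seen. The assembly factor Pomp was at −0.44 ± 0.16 and Usp14, another deubiquitinase of the particle, at −0.40 ± 0.14, with adjusted p-values of 0.103 and 0.0922 by edgeR. Nfe2l1, which encodes NRF1, was higher in CLP (0.39 ± 0.13, adjusted p = 0.0868 by edgeR) and lower in CLP+DCA than in CLP (−0.36 ± 0.13, adjusted p = 0.401 by edgeR), opposite in sign to most subunits. Of 6 genes that supply ubiquitin none passed, with the polyubiquitin gene Ubb at 0.51 ± 0.16 and the activating enzyme Uba6 at 0.28 ± 0.20 in CLP versus sham. In CLP+DCA versus CLP, Ubb was at −0.12 ± 0.16 and the activating enzyme Uba1 at 0.05 ± 0.10.

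Of 13 genes of class I presentation 6 were lower in CLP, near the 48.1% of all genes, and none passed the FDR in any contrast. B2m, the light chain of class I molecules, had 1181 ± 91.1 CPM in sham, 629 ± 138 CPM in CLP and 1018 ± 348 CPM in CLP+DCA livers (SD, n = 4), with a log2 fold change of −0.91 ± 0.26 in CLP versus sham (adjusted p = 0.0700 by edgeR). The heavy chain gene H2-K1 was at −0.34 ± 0.11 (adjusted p = 0.0919 by edgeR). In CLP+DCA versus CLP 10 of the 13 were higher, against 51.6% of all genes, with B2m at 0.70 ± 0.26 and H2-K1 at 0.29 ± 0.11. Tap1 was higher in all 4 CLP+DCA mice (22.0 to 28.9 against 16.9 to 19.6 CPM, log2 fold change 0.44 ± 0.09, adjusted p = 0.158 by edgeR). Of 21 tested genes of the interferon-gamma response 16 were lower in CLP than in sham, against 48.1% of all genes, and 16 higher in CLP+DCA than in CLP, against 51.6%, and none passed the FDR in either. The list was not uniform. Its log2 fold changes in CLP versus sham ran from −1.43 in Cxcl9 to 4.08 in Socs1, so that the largest change was upward. Socs1 was also the highest of the list in CLP+DCA versus sham, at 3.66. The smallest p-values in CLP versus sham were at Cxcl10 (−1.38 ± 0.36), Gbp7 (−1.02 ± 0.28) and Ifngr2 (0.61 ± 0.18), and in CLP+DCA versus CLP Irf9 was at 0.50 ± 0.09 and Gbp3 at 0.97 ± 0.23.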

How the data were processed

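Whole-liver RNA of 12 mice (4 sham, 4 CLP, 4 CLP+DCA) was analysed. The authors prepared poly(A) libraries, aligned reads with STAR 2.5 to mm10, used featureCounts for gene counts (Subread 1.5.0-p1, per the submitters' processing notes), and deposited unnormalized read counts for 25611 genes. The strand setting is not given in the sources used here, so that reads of overlapping genes cannot be told apart. Depth was 24436513 to 44266819 reads per mouse.

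Counts were filtered with filterByExpr (minimum count 10), normalized by TMM and fitted to all 12 mice with edgeR 4.0.16 (robust quasi-likelihood, R 4.3.3), with Benjamini-Hochberg adjustment over 13190 genes at an FDR of 0.05. Log2 CPM used a prior count of 2, and ratios a pseudocount of 0.5 reads with exact permutation tests. DESeq2 1.42.0, limma 3.58.1 (voom), other scalings, filters and thresholds, a replicate block and leaving out each mouse were alternatives. Scripts were tested on simulated data. RefSeq promoters and GENCODE M21 exon lengths gave sequence and length.

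Members and lists were chosen with earlier results of these data known. Named are the immunoproteasome and catalytic genes in every mouse, the members with the highest and lowest log2 fold change of each structural group in CLP versus sham, the untested member, and of each list the genes past the FDR or else the 3 with the smallest p. Some genes that this rule names are not reported here. Samples were grouped by their labels. Nothing in the labels ties equal replicate numbers together. Of 12 correlations between same-numbered mice, 1 was over 0.1, and they ranged from −0.46 to 0.55. The highest was that of CLP+DCA replicate 1 with CLP replicate 1.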

Additional observations from a re-analysis of the deposited data

Results flagged for a closer look

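In 9 of 69 groups of 4 mice checked, the highest or lowest mouse was farther from the others than Dixon's 95% limit allows, a limit that chance passes in about 1 in 20 groups. In 4 of them the mouse was CLP+DCA replicate 3: Psmb9 was at 5.15 CPM against 16.3 to 16.8 in the other mice of its group, neutrophil markers summed to 61.1 CPM against 5.84 to 13.4, stellate cell markers to 247 CPM against 123 to 139, and cholangiocyte markers to 213 CPM against 38.4 to 66.2. The part of these cells in the value of Psmb9 was not tested. The 69 groups share mice and in part genes, so that the number past the limit cannot be weighed against 1 in 20.

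In sham replicate 4, Psme1 was at 79.3 CPM against 94.3 to 94.9, and Psme2 at 68.6 CPM against 75.6 to 76.9. In sham replicate 2, Psmb10 was at 40.1 CPM against 38.1 to 38.4. In CLP replicate 1, Kupffer cell markers summed to 371 CPM against 292 to 305, and in CLP replicate 4 endothelial markers summed to 109 CPM against 132 to 136.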

How the results depend on the processing

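Members past the FDR in CLP versus sham, 0 as reported, numbered 11 at an FDR of 0.1 (15.3% of all genes), 10 by DESeq2 on 12 mice, 13 by DESeq2 on 8 mice, 19 by voom and 8 by edgeR on 8 mice, and 0 to 13 when each mouse was left out, with 5 without CLP replicate 3 and 13 without CLP+DCA replicate 3. In CLP+DCA versus CLP they numbered 12 by voom and 0 to 3 when a mouse was left out. With library size alone the median of all genes shifted to −0.15 in CLP versus sham and 0.12 in CLP+DCA versus CLP, and the median of the constitutive subunits to −0.37 and 0.30. When each mouse was left out, members with groups apart numbered 16 to 29 in CLP versus sham (13.2 to 19.8% of all genes) and 2 to 16 in CLP+DCA versus CLP (2.27 to 12.4%), with 5 without CLP replicate 2 and 16 without CLP replicate 3 or without CLP+DCA replicate 3. The edgeR fit of all mice shares its estimate of spread among the 3 groups. A mouse of the third group thus enters the SE of CLP versus sham. Without CLP+DCA replicate 3 this SE was 0.13 against 0.20 for Psmb10, 0.16 against 0.32 for Psmb9 and 0.11 against 0.12 for Psmb5. The cause of the changed counts was not tested.

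Values near 0 in CLP+DCA versus sham changed sign. The log2 fold change of Psmb5 was −0.0025 with RLE size factors, −0.061 with library size alone, −0.0033 without a filter, −0.0038 and −0.0022 by DESeq2 on 12 and 8 mice, −0.085 by voom and −0.048 to 0.068 when a mouse was left out. Psmb6 was at −0.042 with library size alone and at −0.039 to 0.068 when a mouse was left out, and Psmb10 at 0.048 by voom and at −0.26 to 0.080. The log2 ratios ranged from −0.11 to 0.49 for Psmb9 to Psmb6, −0.021 to 0.34 for Psmb8 to Psmb5 and −0.057 to 0.18 for Psmb10 to Psmb7, and in CLP+DCA versus CLP from −0.00083 to 0.22 for Psme1 to Psme3.

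The labels do not say that equal replicate numbers pair the mice. With the replicate block 0 members passed the FDR in each of the 3 contrasts, and of all genes 46 passed in CLP versus sham.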
